A study of Mus musculus with 9 samples.

Results

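The genes described here encode 33 subunits and receptors for the 2 main fast transmitters of the brain: 11 subunits of the GABA-A receptor, 4 of the AMPA receptor, 5 of the kainate receptor, 7 of the NMDA receptor and 6 metabotropic glutamate receptors. Members were listed by gene name, with earlier results of these data known, out of 35975 genes with a quantified transcript. Of the 33, 31 were listed in the authors' table of log2 CPM (log2 of counts scaled to the library total) and 32 could be tested on counts summed over all transcripts of a gene. The libraries hold mRNA of the mediobasal hypothalamus (MBH), taken from male wild-type C57Bl/6 mice at P21, around weaning. The dams had drunk plain water (CTRL, 4 libraries) or water with 1% carboxymethylcellulose (CMC) and 1% polysorbate 80 (P80), a pair of food emulsifiers (Emul, 5 libraries). The methods describe the libraries as coming from 4 control and 5 emulsifier-treated litters, and p-values measure the spread between them. No allele was manipulated. The comparison asks whether maternal emulsifier intake went with altered receptor gene expression in the MBH of the pups.

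GABA-A receptors are chloride channels built from 5 subunits around the pore, and their α, β, γ, δ, ε and θ subunits set GABA affinity, drug sensitivity and whether a receptor sits at or outside the synapse. AMPA, kainate and NMDA receptors are cation channels opened by glutamate, each an assembly of 4 subunits. Metabotropic glutamate receptors are coupled to G proteins, and most of those measured here act on transmitter release. In the MBH these receptors carry the synaptic input onto the neurons that control feeding and energy balance.

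Estimated counts summed to between 28245360 and 46067534 per library, the lowest being CTRL 3. Arcuate genes were present, with means over all libraries of 44.9 TPM (counts corrected for transcript length and library total) for Pomc, 41.4 TPM for Agrp and 223 TPM for Npy, whereas Kiss1 was at 0.251 TPM. Markers of other tissue and cell types were read in 13 lists. Values of members with the thalamus, oligodendrocyte or pan-neuronal level as a covariate are given beside some of the results. The level used as a covariate was the mean log2 CPM of the tested markers, scaled between libraries, and not their summed TPM. A level that differs between the groups cannot be told apart from the treatment in such a fit. The summed TPM of 8 thalamus markers, none of them at 0, was 102.7 to 142.0 in CTRL, and in Emul it was 172.8, 141.8, 252.1, 114.4 and 106.7 for libraries 1 to 5 (two-sided exact permutation test, p = 0.19). Of 7 thalamus markers tested, 2 had an unadjusted p under 0.05 (Ntng1 and Rora), both higher in Emul. Of 7 mature oligodendrocyte markers, 6 were lower in Emul at that threshold, and their summed TPM was 12323.2 to 15518.6 in CTRL and 9226.7 to 12896.7 in Emul. All 8 pan-neuronal markers had a log2 fold change above 0 (median 0.113), 5 of them with an unadjusted p under 0.05. Their summed TPM was 3644.5 to 3900.9 in CTRL and 3626 to 3888.3 in Emul. The summed TPM of 7 astrocyte markers did not overlap between the groups, at 1308.4 to 1391.1 in CTRL and 1099.8 to 1264.6 in Emul (exact permutation test, p = 0.0159). The exact p was 0.0238 for mature oligodendrocyte, 0.0317 for oligodendrocyte precursor and 0.0159 for endothelial markers, all lower on average in Emul, and the adjusted p over the lists was 0.103 for each of these 4. In TPM, the median log2 ratio of Emul to CTRL over all genes tested was itself -0.0983. On counts scaled between libraries, 1 of 7 astrocyte markers (Gfap, -0.40) and 1 of 5 endothelial markers (Slco1a4, -0.25) had an unadjusted p under 0.05. The median log2 fold change was -0.043 for the astrocyte and -0.051 for the endothelial markers, with 1 and 2 of them above 0. The part of the astrocyte, precursor and endothelial differences in the results was not tested. In bulk tissue, fewer cells of a type and less RNA per cell cannot be told apart.

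The levels of the subunits, compared per length as TPM, differed far more between genes than between libraries for most members. Grin1, the obligatory NMDA subunit, was the highest at 217 ± 6.13 TPM (SD over all 9 libraries), and its range of 207 to 226 TPM did not overlap that of any other member. Gria2, the AMPA subunit that limits calcium entry, followed at 184 ± 11.8 TPM, and its range overlapped that of Gria1 (151 ± 12.7 TPM). Grik5, a kainate subunit that needs a partner to form a channel, was at 98.8 ± 3.98 TPM and Gria4 at 72.8 ± 3.64 TPM. The 5 lowest were Grm8 (13.1 ± 1.28 TPM), Grm3 (9.9 ± 1.05 TPM), Grin2a (8.07 ± 0.563 TPM), Gabrd (1.93 ± 1.57 TPM) and Grin3b (0.53 ± 0.144 TPM). Below Gria4, the ranges of neighbouring members overlapped without a break down to Gabre: Gabrq, Gabra3, Gabrb2, Grm7, Gabra2, Gabrg1, Grm5, Gabra5, Gabrb1, Grik2, Gria3 and Gabre lay between 66.2 and 41.3 TPM on average. Summed over each family, the 11 GABA-A subunits reached 483 ± 34.1 TPM in CTRL (n = 4) and 467 ± 42.9 TPM in Emul (n = 5). The 4 AMPA subunits reached 469 ± 16.5 and 439 ± 30.7 TPM, the 7 NMDA subunits 329 ± 9.77 and 318 ± 10.3 TPM, the 5 kainate subunits 217 ± 8.32 and 209 ± 10.4 TPM, and the 6 metabotropic receptors 172 ± 8.64 and 178 ± 11.7 TPM. TPM values are not corrected for the composition of a library. The median log2 ratio of Emul to CTRL was -0.0983 over all genes tested and -0.0403 over the members. Tests of single genes were therefore made on the scaled counts, whereas the summed markers and the subunit ratios were tested on TPM.

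**Figure D1:**
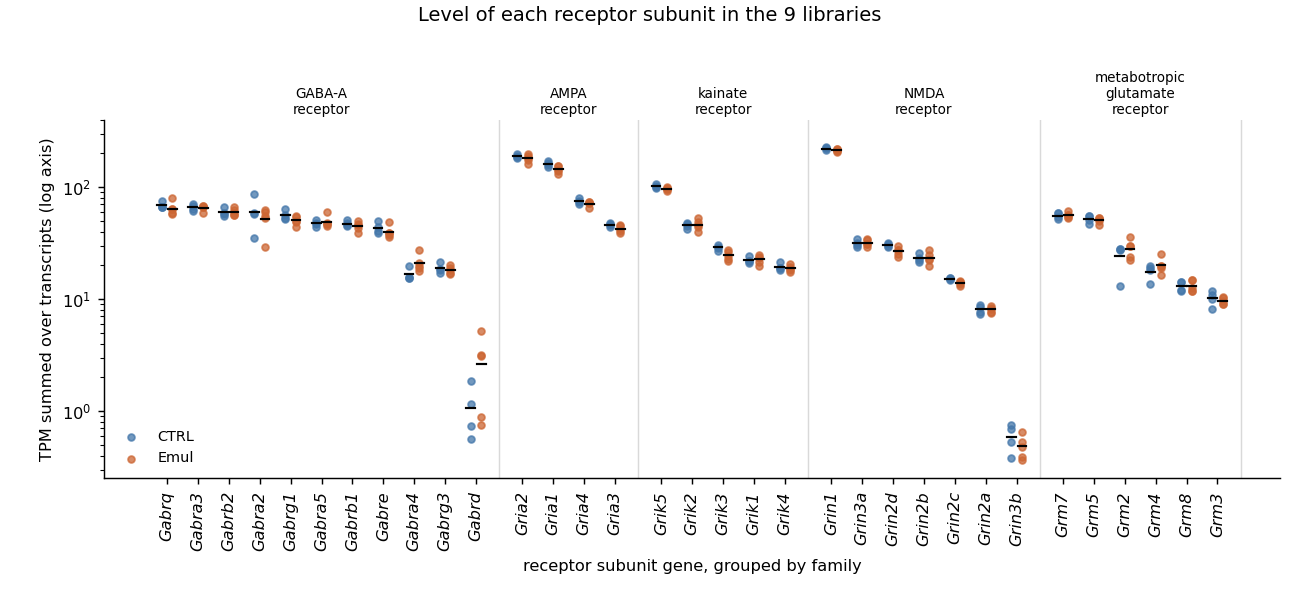
TPM summed over the transcripts of each gene (log axis) for the 33 members, grouped by receptor family. Each point is 1 library (blue, CTRL, n = 4; orange, Emul, n = 5) and each black line a group mean. Most members differ far less between groups than between genes, while Gabrd ranges from 0.561 to 5.17 TPM over the libraries and Grin3b stays below 1 TPM.

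Between Emul and CTRL, none of the 32 members tested had an adjusted p under 0.05 (limma-voom, Benjamini-Hochberg over 15340 genes), beside 0.117% of all genes, and none an adjusted p under 0.10, beside 0.398%. None passed both an unadjusted p under 0.05 and a 1.5-fold difference, beside 0.469% of all genes. At an unadjusted p under 0.05, 8 of 32 members (25%) differed, beside 15.8% of all genes tested. Of these 8, 7 were higher in Emul (Grm8, Gabra4, Grm7, Grik1, Grin3a, Grik2 and Grin2b), beside 6.84% of all genes, and Grik3 was lower, beside 8.99% of all genes. The median log2 fold change was 0.05 over the members and 0.002 over all genes, with 24 members above 0 and 8 below (19 and 13 with library size alone as the scaling). Of all 15340 genes tested, 7788 were above 0 and 7552 below. In 2 members, Grm8 and Grm7, the libraries of the groups did not overlap, both higher in Emul, beside 6.6% of all genes in either direction, 2.8% higher and 3.8% lower. The number of members with an unadjusted p under 0.05 was 5 without CTRL 1, 5 without CTRL 4, 4 without Emul 3 and 12 without Emul 4, beside 13.5%, 12.5%, 14.9% and 17.4% of all genes in these fits. With the oligodendrocyte, pan-neuronal or thalamus marker level as a covariate, 1, 2 and 4 members were under this threshold, beside 8.65%, 5.81% and 12.8% of all genes. In the authors' table, 6 of 31 members (5 of them among the 8) had an unadjusted p under 0.05, beside 13.5% of all genes. Of these, 5 were higher, beside 6.05% of all genes, and 1 was lower, beside 7.42%. None had an adjusted p under 0.05, beside 0.0343% of all genes, and the smallest was 0.192.

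**Figure D2:**
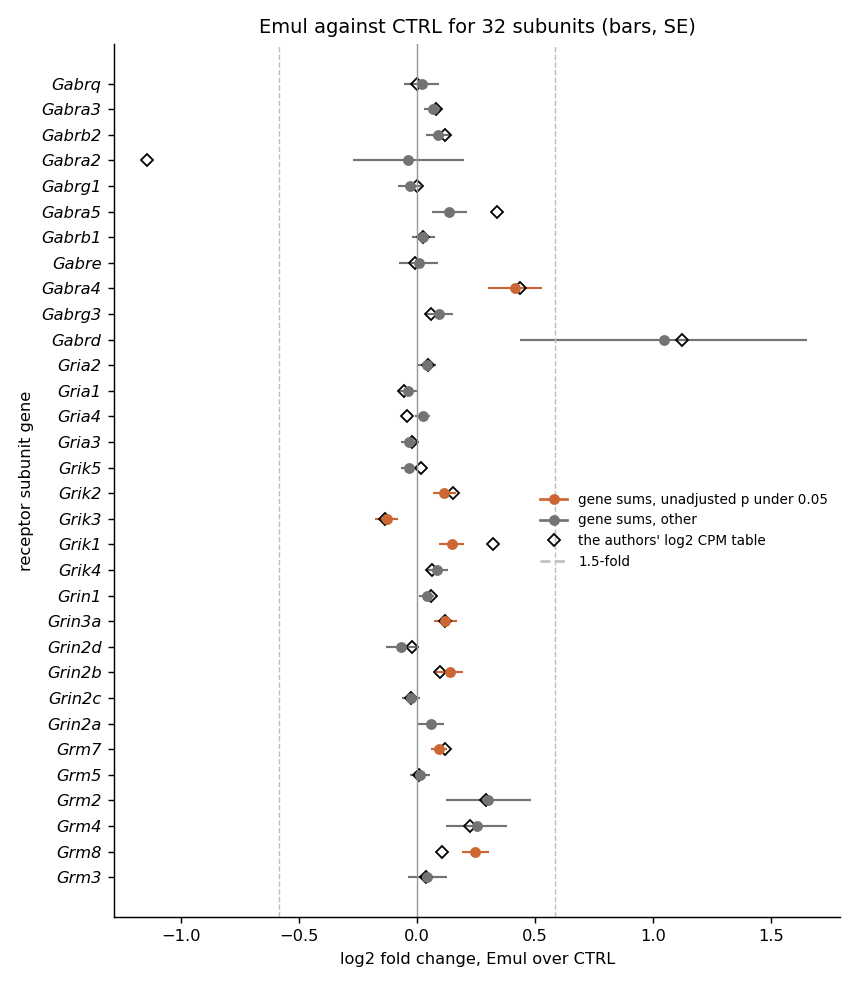
Log2 fold change of Emul over CTRL (horizontal axis) for the 32 members tested, grouped by family. Filled circles with SE bars are from gene sums (orange, unadjusted p under 0.05), open diamonds from the authors' log2 CPM table, and dashed lines mark 1.5-fold. Only Gabrd (gene sums and table) and Gabra2 (table) lie beyond 1.5-fold, and neither has an unadjusted p under 0.05.

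Among the GABA-A subunits, Gabra4 alone had an unadjusted p under 0.05 by limma-voom on gene sums, whereas Gabra5 also did in the authors' table and Gabrd by edgeR, by DESeq2 and with the replicate number as a block. Gabra4 (chr5:71569749-71658308, minus strand, mm10) encodes α4, an extrasynaptic partner of δ that is abundant in thalamus and hippocampus. Its log2 CPM was 4.94, 5.17, 4.89 and 4.98 in CTRL 1 to 4 and 5.45, 5.42, 5.81, 5.13 and 5.28 in Emul 1 to 5. Emul 3 was the highest, and only Emul 4 fell within the CTRL range. Gabra4 had a log2 fold change of 0.41 ± 0.11 (SE; 1.33-fold, adjusted p = 0.153), and 0.44 ± 0.12 in the authors' table (adjusted p = 0.192). The unadjusted p stayed under 0.05 without any 1 of the 9 libraries (0.000554 to 0.0115). Emul 1 and Emul 3, the libraries with the most thalamus marker RNA, were the 2 highest. Without both, the log2 fold change was 0.28 (adjusted p = 0.281), and with the thalamus marker level as a covariate it was 0.19 (adjusted p = 0.245). With the oligodendrocyte level as a covariate it was 0.31 (adjusted p = 0.576) and with the pan-neuronal level 0.23 (adjusted p = 0.956). The unadjusted p was above 0.05 in both of these fits. The first 196 bases of Gabra4 overlap the start of Gabrb1 on the other strand. The library kit marks strand, but the strand setting of the quantification is not given in the sources used here.

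Gabrd, the δ subunit of extrasynaptic receptors (chr4:155384980-155398112), had the largest fold change and the widest spread of the members tested. Its CPM exceeded 1, the minimum for testing, in 5 of 9 libraries, 2 of CTRL and 3 of Emul. Its log2 CPM was -0.45, 0.83, -0.79 and 0.27 in CTRL and 1.65, 1.67, 2.34, -0.13 and -0.28 in Emul. Emul 1 to 3 lay above every CTRL library, whereas Emul 4 and 5 lay within the CTRL range. These values rest on 15 to 189 estimated counts. The log2 fold change was 1.05 ± 0.61 (adjusted p = 0.429), and 1.12 ± 0.57 in the table (adjusted p = 0.419). The unadjusted p was under 0.05 without Emul 4 (log2 fold change 1.39, adjusted p = 0.25) or without Emul 5 (1.35, adjusted p = 0.334), and on all libraries by edgeR's quasi-likelihood test (1.29, adjusted p = 0.256) and DESeq2 (1.33, with no adjusted p assigned). With the thalamus marker level as a covariate it was 0.10 (adjusted p = 0.917).

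Gabra2, the α2 subunit common in limbic and hypothalamic synapses, varied most among the well expressed members. Its log2 CPM was 6.22, 6.95, 7.54 and 6.91 in CTRL and 6.95, 6.15, 6.99, 7.07 and 7.12 in Emul. CTRL 1 and Emul 2 were low and CTRL 3 was high, so the groups overlapped throughout. The log2 fold change was -0.04 ± 0.24 (adjusted p = 0.955). In the authors' table it was -1.14 ± 0.66 (adjusted p = 0.471), and there CTRL 1 stood at 0.98 and Emul 2 at -1.31 log2 CPM. Of the Gabra2 counts, 97.1% lay on transcripts with higher Ensembl numbers. A transcript with a retained intron, Gabra2-202, took 11.5% of the Gabra2 counts in CTRL 1 and 9.33% in Emul 2, the libraries with the least Gabra2, and 0.728% in CTRL 3, the library with the most. Its share did not pass the test between the groups (limma's diffSplice, adjusted p = 0.92).

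**Figure D3:**
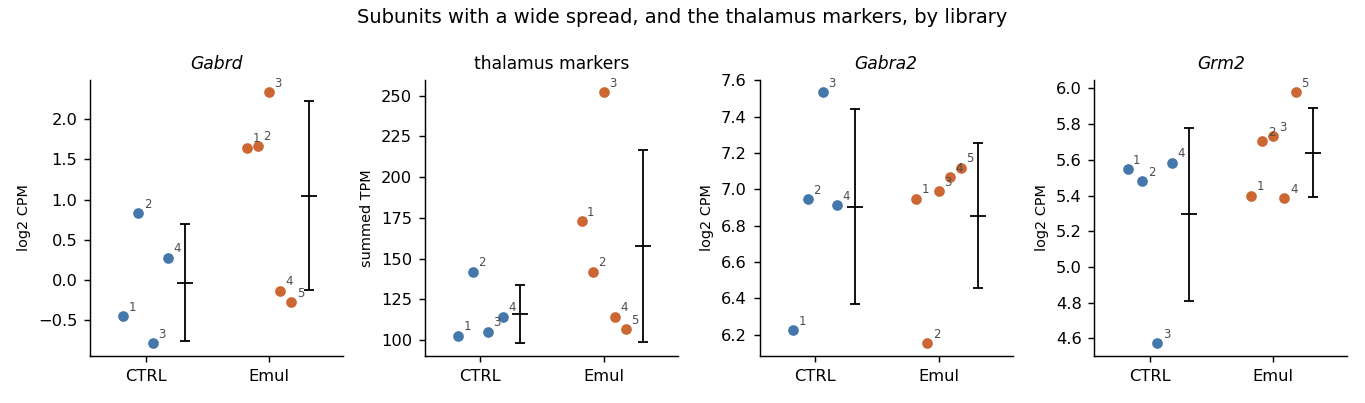
Log2 CPM of Gabrd, Gabra2 and Grm2, and summed TPM of 8 thalamus markers, in each library (points, numbered by replicate; black, mean and SD; CTRL, n = 4; Emul, n = 5). Emul 1 and 3 are high in both Gabrd and the thalamus markers. Emul 2 is as high in Gabrd as Emul 1, with thalamus markers (141.8 TPM) inside the CTRL range, just below CTRL 2 (142 TPM). CTRL 2 is the highest CTRL library in both Gabrd and the thalamus markers. CTRL 1 and Emul 2 are low in Gabra2, and CTRL 3 is low in Grm2.

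The other GABA-A subunits had an unadjusted p above 0.05 by limma-voom on gene sums of all libraries. Gabra5, the α5 subunit of tonic inhibition in hippocampus, had a log2 fold change of 0.14 ± 0.07 (adjusted p = 0.396) from gene sums and 0.34 ± 0.09 (unadjusted p under 0.05, adjusted p = 0.2) from the authors' table. Of its counts, 66.5% lay on higher-numbered transcripts, and on the remaining transcripts the log2 fold change was 0.33 (unadjusted p under 0.05, adjusted p = 0.182). It was 0.07 without Emul 5 and -0.13 with the pan-neuronal level as a covariate. The α3 subunit gene Gabra3 was at 0.07 ± 0.04 (adjusted p = 0.418), the β subunit genes Gabrb1 at 0.03 ± 0.05 and Gabrb2 at 0.09 ± 0.05, and the γ subunit genes Gabrg1 at -0.03 ± 0.05 and Gabrg3 at 0.09 ± 0.06. Gabre and Gabrq, the ε and θ subunits typical of hypothalamus and brainstem, were at 0.01 ± 0.08 and 0.02 ± 0.07, with adjusted p-values of 0.983 and 0.93. Gabra3 and Gabrb2 came under that threshold without CTRL 2, Gabrg3 without CTRL 3, and Gabra5 without CTRL 1 or Emul 4. In the other direction, the log2 fold change of Gabrb2 was 0.05 without CTRL 3 and that of Gabrg3 was 0.04 without CTRL 4.

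The AMPA subunits had log2 fold changes within 0.05 of 0. They were -0.04 ± 0.04 for Gria1 (adjusted p = 0.654), 0.04 ± 0.04 for Gria2 (adjusted p = 0.614), -0.03 ± 0.03 for Gria3 (adjusted p = 0.641) and 0.02 ± 0.03 for Gria4 (adjusted p = 0.758). In the table they were -0.05, 0.04, -0.02 and -0.04. Gria2 made up 40.1% ± 1.13 of the summed TPM of Gria1 to Gria4 in CTRL (n = 4) and 41.2% ± 0.773 in Emul (n = 5). The library values were 41.2%, 40.5%, 38.5% and 40.1% in CTRL and 40.5%, 40.5%, 41.9%, 41.1% and 42.1% in Emul. The groups overlapped (two-sided exact permutation test, p = 0.135, adjusted p = 0.405 over 3 subunit ratios).

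Each AMPA gene carries a pair of alternative exons of 115 bases, flop and flip, which encode part of the ligand-binding domain and alter how fast the channel desensitizes. Flip is the form of the young brain, and flop increases after birth. In all 4 genes, flop comes first in the direction of transcription. The exons of Gria3 (GENCODE M21 transcripts, mm10) are shown because the transcript with flip alone took a smaller share of Gria3 in Emul. They lie on the plus strand at chrX:41654810-41654924 (flop) and chrX:41669501-41669615 (flip), are identical at 83 of 115 positions (72.2%), and capitals mark the 32 positions that differ.
Gria3 flop: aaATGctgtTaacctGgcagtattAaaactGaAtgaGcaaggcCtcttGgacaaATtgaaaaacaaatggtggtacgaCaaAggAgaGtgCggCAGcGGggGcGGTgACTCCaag
Gria3 flip: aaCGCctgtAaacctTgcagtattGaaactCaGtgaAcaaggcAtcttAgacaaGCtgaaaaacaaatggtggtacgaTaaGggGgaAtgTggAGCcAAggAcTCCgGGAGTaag
The same pair is identical at 68.7% of positions in Gria1, 68.7% in Gria2 and 73% in Gria4.

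Transcript shares within genes were tested for 34224 transcripts with limma's diffSplice. Of 87 transcripts from 25 members, 2 had an adjusted p under 0.05, beside 1.07% of all transcripts, and 10 (11.5%) had an unadjusted p under 0.05, beside 11.7% of all. The first of the 2 was Gria3-201, the Gria3 transcript with flip only. It took 33.4%, 39.5%, 35.1% and 44% of Gria3 counts in CTRL and 29.1%, 36.3%, 30.3%, 31.8% and 30.5% in Emul. It fell from 38% ± 4.76 to 31.6% ± 2.81, a log2 change of -0.40 against the rest of the gene (adjusted p = 0.0253), with Emul 2 inside the CTRL range. Gria3-206, which holds both exons and is annotated as a target of nonsense-mediated decay, took 51.9% ± 3.93 in CTRL and 58% ± 2.94 in Emul (log2 change 0.35, adjusted p = 0.0509). The call on Gria3-201 was lost without CTRL 2 (adjusted p = 0.118), CTRL 4 (0.193), Emul 1 (0.0907), Emul 3 (0.0574), Emul 4 (0.0548) or Emul 5 (0.0713). Gria2-204, a Gria2 transcript with a retained intron, had a log2 change of 0.33 (adjusted p = 0.117).

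Counted as flip-only transcripts among all transcripts with a flip or a flop exon, a measure chosen after the data were seen, flip made up 42.2% ± 4.84 of Gria3 in CTRL and 35.2% ± 3.13 in Emul. The library values were 37.6%, 43.8%, 39% and 48.2% in CTRL and 32.3%, 40.4%, 33.5%, 35.5% and 34.2% in Emul. The groups overlapped through Emul 2 (exact permutation test, p = 0.0317, adjusted p = 0.127 over the 4 genes), and the unadjusted exact p was above 0.05 without CTRL 2, CTRL 4, Emul 1, Emul 3, Emul 4 or Emul 5. Flip was 44.9% ± 2.43 and 41.8% ± 2.75 of Gria4 (p = 0.119, exact test), 31.4% ± 1.91 and 31% ± 1.92 of Gria2 (exact p = 0.825), and 53.9% ± 3.62 and 55.1% ± 1.31 of Gria1 (exact p = 0.643). For Gria3 the value depends on Gria3-206, since transcripts with flop only took 0.121% of its counts in CTRL and 0.277% in Emul. With Gria3-206 left out, the Gria3 difference was -0.55 percentage points (exact permutation test, p = 0.722).

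**Figure D4:**
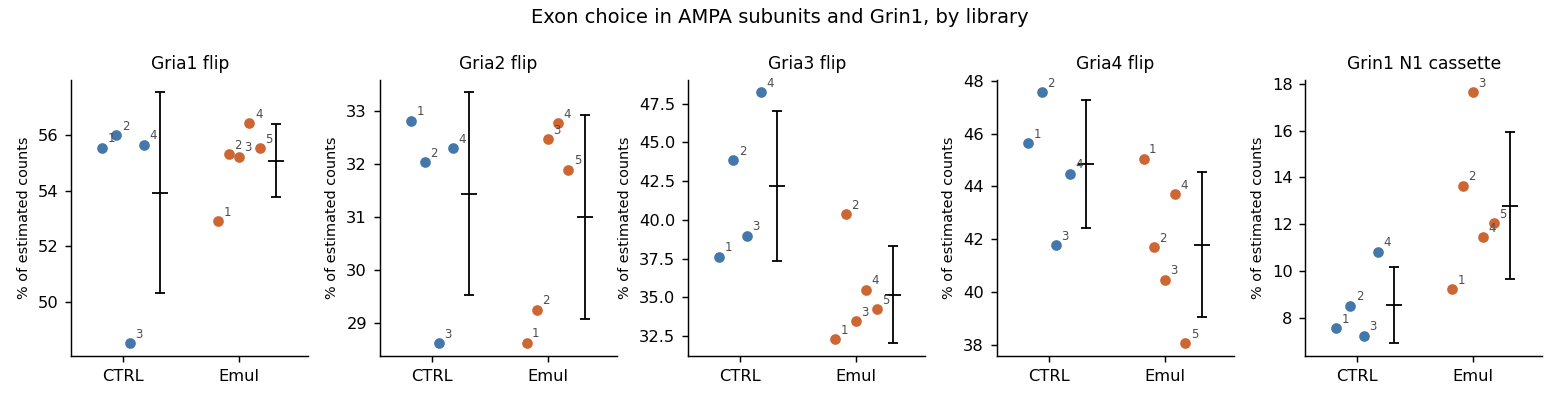
Percent of estimated counts on flip-only transcripts among transcripts with flip or flop for Gria1 to Gria4, and percent of the 8 full-length Grin1 variants that carry the N1 cassette, in each library (points, numbered by replicate; black, mean and SD; CTRL, n = 4; Emul, n = 5). Vertical axes do not start at 0. The Gria3 flip share is lower in Emul except in Emul 2, the Grin1 N1 share is higher except in Emul 1, and the groups overlap in all 5 panels.

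Of the kainate subunits, Grik1 and Grik2 were higher in Emul and Grik3 was lower at an unadjusted p under 0.05. All 3 encode subunits that can form a channel by themselves, whereas Grik4 and Grik5 encode high-affinity subunits that need such a partner. The log2 CPM of Grik1 (chr16:87895900-88290265) was 5.04, 5.01, 5.13 and 4.98 in CTRL and 5.11, 5.06, 5.25, 5.29 and 5.19 in Emul. CTRL 3 overlapped Emul 1 and 2. Grik1 had a log2 fold change of 0.15 ± 0.05 (adjusted p = 0.22) and 0.32 ± 0.09 in the table (adjusted p = 0.214), with 55.2% of its counts on higher-numbered transcripts. Its unadjusted p was 0.0576 without CTRL 4, 0.0615 with library size alone as the scaling and 0.0766 with the oligodendrocyte level as a covariate. One Grik1 transcript, Grik1-210, took 8.93% ± 1.55 of the counts in CTRL and 4.49% ± 1.5 in Emul, without overlap (6.7%, 10.3%, 9.36% and 9.39% against 5.69%, 3.58%, 4.91%, 2.36% and 5.92%). These are 42 to 136 estimated counts (adjusted p = 0.0653).

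The log2 CPM of Grik2 (chr10:49094833-49788766) was 6.97, 7.03, 6.95 and 6.93 in CTRL and 7.04, 7.01, 7.18, 7 and 7.21 in Emul. Emul 3 and 5 stood above the others, and CTRL 2 lay above Emul 2 and 4. For Grik2 the Emul-to-CTRL log2 fold change was 0.12 ± 0.05 (adjusted p = 0.269), and 0.15 ± 0.10 in the table (adjusted p = 0.519). It was 0.01 with the pan-neuronal (adjusted p = 0.993) and 0.03 with the oligodendrocyte level as a covariate (adjusted p = 0.88), and the unadjusted p of Grik2 was under 0.05 in 12 of 26 alternatives. For Grik3 (chr4:125490700-125714173) the log2 CPM was 7.04, 7.03, 7.1 and 6.95 in CTRL and 7, 6.8, 6.8, 7.01 and 6.87 in Emul. Emul 2, 3 and 5 lay below every CTRL library, and Emul 1 and 4 did not. The log2 fold change of Grik3 was -0.13 ± 0.05 (adjusted p = 0.243), and -0.14 ± 0.05 in the table (adjusted p = 0.307). With the pan-neuronal level as a covariate it was 0.04 (adjusted p = 0.983). Unadjusted p rose above 0.05 for Grik2 without CTRL 1, CTRL 3, CTRL 4, Emul 3 or Emul 5 (up to 0.0899), and for Grik3 without CTRL 1, CTRL 3, Emul 2 or Emul 3 (up to 0.0696). Grik4 was at 0.09 ± 0.04 (adjusted p = 0.368; unadjusted p under 0.05 without CTRL 3) and Grik5 at -0.04 ± 0.03 (adjusted p = 0.601). Together, Grik4 and Grik5 made up 55.6% ± 1.18 of the summed kainate TPM in CTRL and 55.4% ± 1.38 in Emul (exact permutation test, p = 0.802, adjusted p = 0.937).

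**Figure D5:**
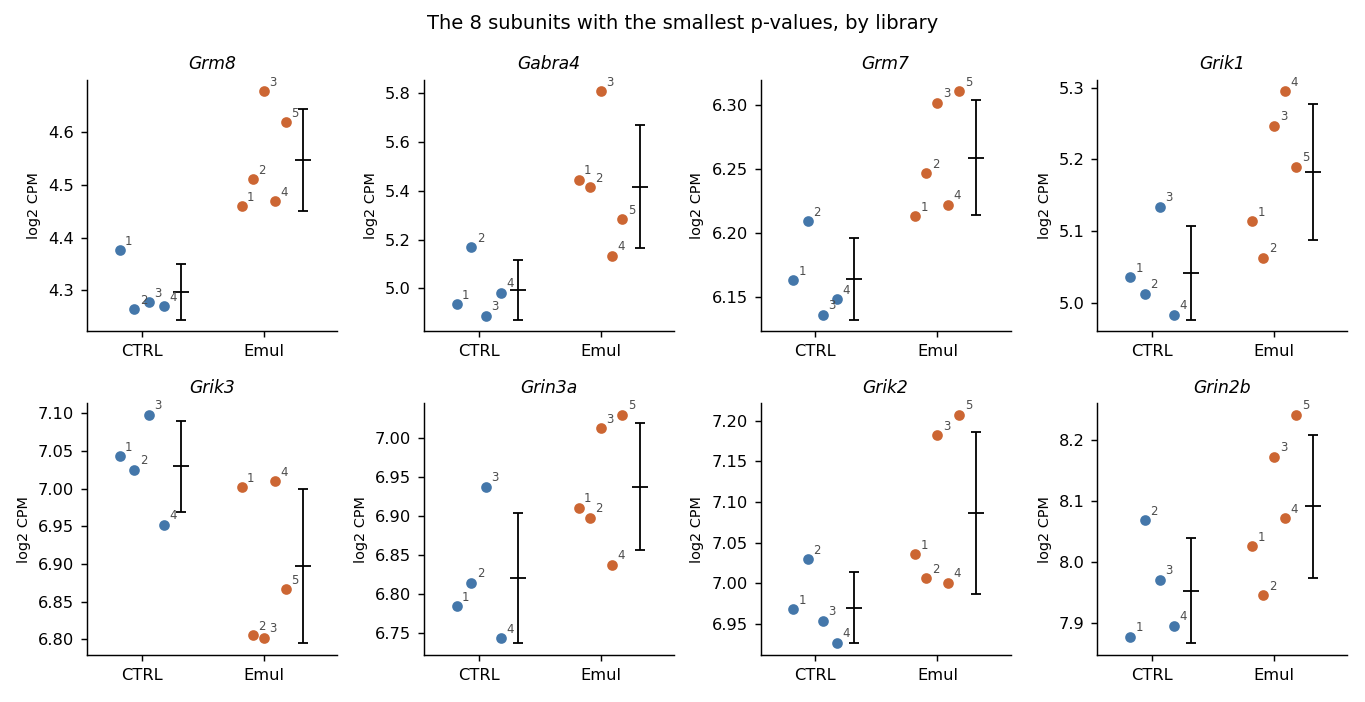
Log2 CPM in each library of the 8 members with the smallest p-values (points, numbered by replicate; black, mean and SD; CTRL, n = 4; Emul, n = 5). Vertical axes differ between panels and do not start at 0. Groups do not overlap in Grm8 and Grm7 and overlap in the other 6, and Grik3 is the member with the lower mean in Emul.

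Among the NMDA subunits, Grin3a and Grin2b were higher in Emul at an unadjusted p under 0.05. Grin3a (chr4:49661611-49845744) encodes a glycine-binding subunit that reduces calcium entry and is most abundant in the first weeks of life. Its log2 CPM was 6.79, 6.82, 6.94 and 6.74 in CTRL and 6.91, 6.9, 7.01, 6.84 and 7.03 in Emul. CTRL 3 lay above Emul 1, 2 and 4. Grin3a had a log2 fold change of 0.12 ± 0.05 (adjusted p = 0.258), and 0.12 ± 0.05 in the table (adjusted p = 0.334). Grin2b (chr6:135713233-136173511) encodes the GluN2B subunit of immature synapses, and its log2 CPM was 7.88, 8.07, 7.97 and 7.9 in CTRL and 8.03, 7.95, 8.17, 8.07 and 8.24 in Emul. CTRL 2 lay above Emul 1 and 2. The log2 fold change of Grin2b was 0.14 ± 0.06 (adjusted p = 0.277), and 0.10 ± 0.08 in the table (adjusted p = 0.624). The unadjusted p of both was above 0.05 without CTRL 1, CTRL 4, Emul 3 or Emul 5, as was Grin3a without CTRL 2 and Grin2b without CTRL 3, with p up to 0.102 and 0.106. With the oligodendrocyte level as a covariate, the log2 fold change was 0.03 for Grin3a (adjusted p = 0.893) and 0.04 for Grin2b (adjusted p = 0.89).

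Grin2a, the GluN2A subunit that joins synapses as they mature, was not listed in the authors' table. Its counts lay wholly on higher-numbered transcripts. Its log2 fold change was 0.06 ± 0.06 (adjusted p = 0.673). The log2 ratio of Grin2a to Grin2b TPM was -1.49, -1.52, -1.67 and -1.41 in CTRL and -1.56, -1.40, -1.57, -1.36 and -1.76 in Emul. The means were -1.52 ± 0.108 and -1.53 ± 0.158, and the groups overlapped throughout (exact permutation test, p = 0.937). Grin1 was at 0.04 ± 0.03 (adjusted p = 0.562; unadjusted p under 0.05 without Emul 4), Grin2c at -0.03 ± 0.04 (adjusted p = 0.783) and Grin2d at -0.07 ± 0.06 (adjusted p = 0.639). Grin3b, the member just outside the filter, had 18.9 to 42.8 estimated counts per library and was not tested. Its level was 0.59 ± 0.17 TPM in CTRL and 0.483 ± 0.116 TPM in Emul.

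The other transcript with an adjusted p under 0.05 was Grin1-207. It is 1 of 4 full-length Grin1 variants with the N1 cassette, an exon of 63 bases near the start of the protein that makes NMDA receptors less sensitive to protons and faster to deactivate. The cassette lies at chr2:25311343-25311405 on the minus strand (mm10). It is printed in capitals below, with the 15 bases on either side of it in Grin1-207 in lower case. It is shown because Grin1-207, which carries it, had an adjusted p under 0.05.
Grin1 N1: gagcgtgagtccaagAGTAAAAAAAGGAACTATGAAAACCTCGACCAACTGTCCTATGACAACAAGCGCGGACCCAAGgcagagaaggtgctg
Grin1-207 took 7.4%, 8.25%, 7.02% and 10.6% of Grin1 counts in CTRL and 9%, 13.2%, 17%, 11.1% and 11.7% in Emul. It rose from 8.31% ± 1.59 to 12.4% ± 3, a log2 change of 0.60 against the rest of the gene (limma's diffSplice, adjusted p = 0.0146). Emul 3 was the highest and Emul 1 lay within the CTRL range. The call was lost without CTRL 1 (adjusted p = 0.0935), CTRL 2 (0.0623) or CTRL 3 (0.0806). Summed over all 4 variants with the cassette, a measure chosen after the data were seen, the N1 share was 8.55% ± 1.62 in CTRL and 12.8% ± 3.13 in Emul (two-sided exact permutation test, p = 0.0397, adjusted p = 0.119 over 3 Grin1 features), and the unadjusted exact p was above 0.05 without any 1 library other than Emul 1. The C1 cassette, which holds a signal that keeps the subunit in the endoplasmic reticulum, was in 38.9% ± 1.66 and 38.2% ± 3.19 of counts (exact p = 0.675), and the C2 end in 51.3% ± 2.01 and 49.7% ± 2.04 (exact p = 0.278).

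All 6 metabotropic glutamate receptors had a log2 fold change above 0 by limma-voom on gene sums, beside 7788 of all 15340 genes tested. In 2 of them, Grm8 and Grm7, the groups did not overlap, beside 6.6% of all genes in either direction and 2.8% higher in Emul. Of the other 4, each was below 0 in at least 1 alternative: Grm2 (-0.48) and Grm4 (-0.16) with the pan-neuronal level as a covariate, Grm3 without CTRL 1 (-0.05) and with the thalamus covariate (-0.0004), and Grm5 with library size alone (-0.02), without CTRL 4 (-0.02) and with the oligodendrocyte covariate (-0.01). Grm8 and Grm7 encode group III receptors, which sit on axon terminals and dampen transmitter release. The log2 CPM of Grm8 (chr6:27275119-28135178) was 4.38, 4.26, 4.28 and 4.27 in CTRL and 4.46, 4.51, 4.68, 4.47 and 4.62 in Emul. Every Emul library lay above CTRL 1, the highest CTRL library. Grm8 had a log2 fold change of 0.25 ± 0.06 (1.19-fold, adjusted p = 0.103), and the unadjusted p stayed under 0.05 without any 1 library. DESeq2 gave an adjusted p of 0.0113, in a fit where 15.2% of all genes had an unadjusted p under 0.05. With the thalamus and oligodendrocyte levels as covariates the log2 fold change was 0.22 (adjusted p = 0.253) and 0.20 (adjusted p = 0.48). With the pan-neuronal level as a covariate, Grm8 was not among the members with an unadjusted p under 0.05. In the authors' table the log2 fold change was 0.11 ± 0.09 (adjusted p = 0.625), with counts scaled by transcript length it was 0.10 (adjusted p = 0.628), and the level per length was 13.1 ± 1.23 TPM in CTRL and 13.1 ± 1.47 TPM in Emul. The transcript Grm8-202 took 47.9% ± 12.3 of Grm8 counts in CTRL and 57.2% ± 8.67 in Emul (adjusted p = 0.467).

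For Grm7 (chr6:110645581-111567230) the log2 CPM was 6.16, 6.21, 6.14 and 6.15 in CTRL and 6.21, 6.25, 6.3, 6.22 and 6.31 in Emul. CTRL 2 and Emul 1 nearly met. For Grm7 the Emul-to-CTRL log2 fold change was 0.09 ± 0.03 (1.07-fold, adjusted p = 0.213), and 0.12 ± 0.05 in the table (adjusted p = 0.324). With the pan-neuronal level as a covariate it was 0.02 (adjusted p = 0.987). Grm4, the third group III receptor measured, had a log2 fold change of 0.25 ± 0.13 (adjusted p = 0.377; unadjusted p under 0.05 without CTRL 4 or Emul 4). It was 0.14 without CTRL 3 (adjusted p = 0.632) and 0.05 with the thalamus marker level as a covariate. Of the group II receptors, Grm2 was at 0.30 ± 0.18 (adjusted p = 0.442) and Grm3 at 0.04 ± 0.08 (adjusted p = 0.845). Grm2 had a log2 CPM of 5.55, 5.48, 4.57 and 5.58 in CTRL and 5.4, 5.71, 5.73, 5.38 and 5.98 in Emul, and without the low CTRL 3 its log2 fold change was 0.10. Grm5, a postsynaptic receptor coupled to calcium release, was at 0.01 ± 0.04 (adjusted p = 0.915).

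The genes that make, move and anchor the ligands and receptors were read from 7 lists, none of which held a gene with an adjusted p under 0.05. Of 8 genes for GABA synthesis, release and uptake, 1 had an unadjusted p under 0.05: Slc32a1, the vesicular GABA transporter, at -0.27 ± 0.12 (adjusted p = 0.311). The GABA-synthesizing enzymes Gad1 and Gad2 were at -0.24 ± 0.12 (adjusted p = 0.35) and -0.23 ± 0.13 (adjusted p = 0.411). Of 11 genes for glutamate synthesis, release and uptake, 1 passed, the vesicular glutamate transporter Slc17a6, higher in Emul by 0.29 ± 0.10 (adjusted p = 0.194). Slc17a6 is the form used by most thalamic and hypothalamic glutamate neurons. Of 5 GABA-B receptor genes, the receptor subunits Gabbr2 (0.18 ± 0.05, adjusted p = 0.155) and Gabbr1 (0.07 ± 0.03, adjusted p = 0.302) passed, both higher in Emul. Of 5 chloride transport genes, the chloride importer Slc12a2 (-0.22 ± 0.07, adjusted p = 0.193) and the kinase Wnk1 (-0.13 ± 0.04, adjusted p = 0.181) passed, both lower. Both are also expressed in glia, and oligodendrocyte markers were lower in Emul, as given above. Their part in these differences was not tested.

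Of 15 AMPA receptor auxiliary and clustering genes, 2 had an unadjusted p under 0.05, Cacng2 (stargazin, 0.08 ± 0.03, adjusted p = 0.229) and Cacng7 (0.09 ± 0.04, adjusted p = 0.251). Of 2 kainate receptor auxiliary genes, none passed. Among the genes of the excitatory postsynaptic scaffold, Dlgap1 was higher at that threshold (0.13 ± 0.05, adjusted p = 0.238). The shares of these lists under the threshold, from 0 to 40%, stand beside the 15.8% of all genes tested.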

How the data were processed

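Per the methods, strand-specific mRNA libraries of the MBH were sequenced in paired-end mode. The submitters' processing notes name FastQC 0.11.9, kallisto 0.46.1, edgeR 3.40.1 and the build mm10. The authors deposited kallisto's estimated counts and TPM per transcript, neither of them summed to genes, and a table of log2 CPM per gene symbol, already normalized. How that table was summed is not given in the sources used here. Higher-numbered transcripts are those from a fixed Ensembl transcript number upwards. The table's log2 fold changes of Gabra2, Gabra5 and Grik1 were -1.14, 0.34 and 0.32. On lower-numbered transcripts alone they were -1.14, 0.33 and 0.33, and from gene sums -0.04, 0.14 and 0.15. For Grm8 the table gave 0.11 and lower-numbered transcripts alone 0.25.

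Transcripts were matched to GENCODE M21 (97.75% of 119414), the source of all coordinates, and the 1.20% to 1.27% of counts without a match were left out. Each gene took the sum of the estimated counts of its transcripts (whole numbers for edgeR and DESeq2). A gene was tested where its CPM exceeded 1 in 4 libraries or more. Scaling was by TMM, and groups were compared by limma-voom (limma 3.58.1, no covariate) with Benjamini-Hochberg adjustment. Log2 CPM of single libraries used a prior count of 2. The authors' table was tested with limma (trend). Transcript shares were tested with diffSplice. For single values, library labels were permuted exactly and two-sided, and the smallest p this can give is 0.0079.

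No 2 libraries of a group agreed within sampling noise (chi-square per gene at least 6.8). Depth was 28245360 to 46067534 estimated counts, and Gabrd and Grin3b had the fewest counts. The members and gene lists were chosen with earlier results of these data known. All 33 members were named. The 8 with the smallest p-values, the 5 highest and 5 lowest levels, the members at the filter, those in 3 ratios and the 5 transcripts with the smallest p-values were described in full, and of each list the genes with an unadjusted p under 0.05, except that some list results are not reported here. Gad1 and Gad2, the flip, flop and cassette shares, Gabra2, Gabra5, Grm2 and Grm4 were singled out with values in view. The tests across genes and transcripts were run on simulated data, with independent counts and a fixed dispersion, and the outcome is not given here. The simulation held no reads shared between transcripts, so it did not check how the quantification divides them. Alternatives were edgeR's quasi-likelihood test (edgeR 4.0.16), DESeq2 1.42.0, limma-trend, sample quality weights, other scalings, filters and gene summaries, the replicate block, each library left out and, chosen after seeing the data, marker covariates and 2 Emul libraries left out.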

Additional observations from a re-analysis of the deposited data

Results flagged for a closer look

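In 13 of 110 groups of libraries examined, 1 library stood apart from the others by Dixon's criterion. By chance about 1 in 20 groups would be picked out. Of the 13, 6 concern CTRL 3, the library with the lowest total count. CTRL 3 was the highest of 4 in log2 CPM of Gabrg1 (6.77, others 6.55 to 6.58) and Gria3 (6.88, others 6.81 to 6.82), and the lowest in Grm2 (4.57, others 5.48 to 5.58). It was also the lowest of the CTRL libraries in the flip share of Gria1 (48.5%, others 55.6% to 56%), and the highest in summed TPM of the astrocyte markers (1391, others 1308 to 1322) and of the tanycyte markers (104.2, others 92.6 to 94.4). CTRL 1 was the highest CTRL library in Grm8 (4.38, others 4.27 to 4.28).

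Among the Emul libraries, Emul 2 was the lowest of 5 in Gabra2 (6.15, others 6.95 to 7.12) and Emul 1 the lowest in Grin2a (5.75, others 5.91 to 5.97). Emul 5 was the highest in the ε and θ subunits, Gabre (6.76, others 6.38 to 6.44) and Gabrq (7.44, others 7.02 to 7.13). In summed TPM of other markers, CTRL 2 was the highest CTRL library for cortex and hippocampus (23.6, others 21.1 to 21.5) and CTRL 4 for pituitary (23, others 16.3 to 17.1).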

How the results depend on the processing

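The number of members with an unadjusted p under 0.05 was 8, of which 7 were higher in Emul. Beside 15.8% of all genes, this was 25% of the members. It became 3 (2 higher) with library size alone, beside 18% of all genes, 5 (4 higher) with lengthScaledTPM, beside 13.2%, and 4 (4 higher), 1 (1 higher) and 2 (1 higher) with the thalamus, mature oligodendrocyte and pan-neuronal marker covariates. Without Emul 1 and 3, the libraries above every CTRL library in thalamus markers, 6 members were called, 4 of them higher, with Grin2d newly called as lower, beside 13.1% of all genes. Across fits without 1 library it ranged from 4 to 12, and those higher from 4 to 11. Past 1.5-fold as well, the count was 0, and 1 (Gabrd) by edgeR, by DESeq2 and with the replicate block, and 0 to 1 without 1 library. At an adjusted p under 0.05 the number of members was 0, and 1 (Grm8) by DESeq2, where 15.2% of all genes had an unadjusted p under 0.05. Of the member transcripts, 0 to 4 had an adjusted p under 0.05 without 1 library. For edgeR, DESeq2, the replicate block and the fits without 1 library, the shares of all genes or transcripts at these thresholds are not given here. The median log2 fold change of the members moved by less than its spread between libraries, and the 3 subunit ratios stayed above an exact p of 0.05, in the alternatives run for them; the adjusted p of the exon shares stayed above 0.05, but the Gria3 flip difference of -7.0 percentage points became -0.55 with Gria3-206 left out. With the pan-neuronal covariate, Grik3 turned from -0.13 to 0.0353 (adjusted p = 0.983) and Grm2 from 0.30 to -0.48 (adjusted p = 0.82), and Gabra5 (-0.13) and Grm4 (-0.16) were among the other members that turned with it. Of 24 uncalled members, 18 turned direction in at least 1 of 26 alternatives, as did 1 of the 8 called, Grik3. The cause of these differences was not tested. No Grin2a ratio could be had from lower-numbered transcripts.

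Replicate numbers gave no pairing: deviations of same-numbered libraries correlated at -0.163, -0.0146, 0.0214 and -0.0551. With the replicate block, 5 members had an unadjusted p under 0.05, beside 12.3% of all genes, and no library correlated best with its own number.

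Gabrd and Grin3b rested on the fewest counts. Shares of transcripts are estimates, since reads common to several transcripts are divided among them by the quantification.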
